A study of Mus musculus with 6 samples.

Results

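The AP-1 and EGR immediate early genes comprised 10 genes, taken by their symbols from the deposited expression table. They were the FOS genes Fos, Fosb, Fosl1 and Fosl2, the JUN genes Jun, Junb and Jund, and Egr1, Atf3 and Ier2. All 10 were among the 35999 symbols of the table, and all 10 were among the 14373 genes that reached 1 TPM in at least 2 libraries and were tested. Fosb passed that filter only through the 2 day 1 libraries. TPM is transcript abundance corrected for transcript length and scaled to a fixed library total, so levels of different genes can be set side by side. Total RNA of mouse primary hepatic stellate cells was sequenced on day 1 (replicates 2 and 3), day 4 (replicates 1 and 2) and day 7 (replicates 1 and 2). The labels give the tissue as liver and the cell type as primary liver cells, and name no strain, genotype, age or treatment. The event that starts the count of days is not stated, nor is it stated whether 2 libraries of a day are separate cultures or animals. The p-values below therefore rest on a spread between libraries that may be purely technical.

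Immediate early genes are switched on within minutes of a stimulus, without new protein synthesis, by serum, growth factors, stress or the release of cells from tissue, and most of their transcripts are short-lived. FOS and JUN proteins join through a leucine zipper into the AP-1 factor, which binds the sequence TGACTCA. FOS proteins need a JUN partner, whereas JUN proteins also pair with each other and with ATF proteins. Stellate cells store vitamin A around the liver sinusoids and turn into myofibroblasts in injury and in culture. In rat stellate cells JunD is known to act on the Timp1 promoter.

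The regions upstream of Fos, Jun and Junb are shown because Fos and Jun fell after day 1 while Junb was not called on the deposited values. A link between these sequences and the changes was not tested. Each is the 250 bases before the RefSeq transcription start in GRCm38.p6, 5′ to 3′ on the gene's strand. Capitals mark matches to 6 motifs on either strand, the AP-1 site TGANTCA, the full cyclic AMP element TGACGTCA, its core TGACGT, the related TGACNTCA, the CCAAT box and the TATA box TATAAA. The CArG box, which binds serum response factor, and the GC box GGGCGG were searched as well and are not capitalized. No annotated exon lies in the 3 windows, and the antisense gene Junos spans that of Jun.
Fos promoter (chr12:85473640-85473889, plus strand): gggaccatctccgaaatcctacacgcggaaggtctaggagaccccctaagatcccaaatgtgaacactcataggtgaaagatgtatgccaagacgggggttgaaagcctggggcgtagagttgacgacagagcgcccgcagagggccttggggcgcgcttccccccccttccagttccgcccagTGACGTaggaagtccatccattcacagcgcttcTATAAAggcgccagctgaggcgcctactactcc
Jun promoter (chr4:95052223-95052472, minus strand): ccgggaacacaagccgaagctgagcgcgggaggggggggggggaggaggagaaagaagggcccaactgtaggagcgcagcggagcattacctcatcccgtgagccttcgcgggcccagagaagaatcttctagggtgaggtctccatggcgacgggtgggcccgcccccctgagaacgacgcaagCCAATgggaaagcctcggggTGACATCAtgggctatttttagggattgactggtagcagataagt
Junb promoter (chr8:84978749-84978998, minus strand): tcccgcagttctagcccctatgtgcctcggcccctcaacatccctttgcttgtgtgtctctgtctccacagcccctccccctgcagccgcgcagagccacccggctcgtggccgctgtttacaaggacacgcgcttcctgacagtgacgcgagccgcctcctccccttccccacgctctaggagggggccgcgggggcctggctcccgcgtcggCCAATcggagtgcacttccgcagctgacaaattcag

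In Fos the core TGACGT lay from position -66 to -61, counted back from the transcription start, and TATAAA from -33 to -28. In Jun a CCAAT box lay from -65 to -61 and TGACATCA, a match to TGACNTCA, from -45 to -38. Junb held a CCAAT box from -36 to -32 and no match to the other motifs. Such regions were taken for 7 of the 10 genes, which were these 3 with Fosb, Fosl2, Jund and Atf3. Fosl1 and Ier2 had no region in the RefSeq set used. Regions of the 10 genes on chromosome 18, where Egr1 lies, were not taken, so the counts below leave Egr1 out. Among those 7, the core TGACGT was found in 2 (Fos and Atf3), against 6.47% of 32851 promoters of the same length. The pattern TGACNTCA, which includes the full TGACGTCA, occurred in 1 of 7 (Jun) and in 7.49% of all. The AP-1 site, the full TGACGTCA and the CArG box matched none of the 7, and matched 6.75%, 1.55% and 1.47% of all promoters. The CCAAT box was present in 2 and the TATA box in 1 of the 7, against 33.8% and 12.4% of all, and the GC box in 5 of the 7 against 32.7%. The serum response element of Fos is known to lie further upstream than this window, and a missing match says only that these letters are not within it. The RefSeq start used was not always the annotated gene start. The Jund window ended at 70697738, before the gene start at 70698949, and the windows of Fosb, Fosl2 and Atf3 overlapped exons of the same gene.

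The 10 genes were short. In GENCODE M21 on GRCm38, Jun, Junb, Jund and Ier2 each had a single exon, so 4 of the 10 did, against 2.96% of the 13034 tested protein-coding genes. Their median gene length was 4698.5 bases against 23617 bases, and 8 of the 10 were under 10000 bases against 24.8%. Some overlap other genes on the opposite strand. Jund shares 877 of its 1668 exonic bases with the antisense gene Gm11175, and Fosl1 shares 1163 of 2033 with Ccdc85b, which had 3.68 to 5.2 TPM. Junb shares 173 of 2301 with Prdx2 (159 to 428 TPM), and Jun 232 of 3189 with Junos. The libraries were stranded per the labels, but the use of strand in quantification is not given in the sources used here, so these levels are uncertain.

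The libraries carried RNA of several liver cell types. The 14 stellate cell markers summed to 201 to 211 TPM on day 1 and 803 to 834 TPM later, and the 12 myofibroblast markers to 256 to 307 and 2690 to 2930 TPM. The 14 macrophage markers summed to 11000 to 13900 TPM on day 1 and 26300 to 28600 TPM later. The 12 endothelial markers summed to 1340 to 1560 TPM throughout, but single markers under that sum moved in both directions. On day 4, 4 were called higher and 3 lower (33.3% and 25%, against 25% and 11.6% of all tested genes). Of the stellate markers Gfap and Ngfr did not reach the filter. The 11 hepatocyte markers summed to 51.1 to 61.9 TPM on day 1 and 2.05 to 5 TPM later, and the 10 dendritic cell markers to 1760 to 1770 and 392 to 498 TPM. The 12 T and NK cell markers went from 54.3 to 63.2 TPM on day 1 to 11.9 to 29 TPM later, the 8 mesothelial markers from 21.9 to 25.8 to 65.8 to 115 TPM, and the 10 neutrophil markers summed to 27.5 to 40.8 TPM throughout, with Ly6g listed at 0. Ngp of that list was also at 0 on days 1 and 7, and S100a9 and Retnlg on day 7, while none of the other 8 lists had a marker at 0 throughout a day. In bulk RNA, fewer cells of a type and less RNA per cell cannot be told apart, and which cells the transcripts below came from was not tested. A group of 12 predicted gene models related to satellite repeats took 17.4% and 26.2% of all TPM in day 1 replicates 2 and 3, and 0.0594% to 0.0913% in the later libraries, which lowers every other day 1 value by that share.

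Between day 1 and day 4 most of the immediate early genes fell, Fosl1 by the most. Of the 10 genes 7 were called lower on day 4 and none higher (limma, Benjamini-Hochberg adjusted p under 0.05), against 11.6% of all tested genes called lower and 25% called higher. Those shares are 1667 lower and 3590 higher calls as deposited, and 3389 lower and 2057 higher when TPM are rescaled without the satellite-like models. In 9 of the 10 both day 4 libraries lay below both day 1 libraries, against 27.8% of all tested genes. The median log2 change of the 10 genes was -0.74, and that of all tested genes 0.11. The 10 genes were chosen with earlier results of these data known, so these counts and shares are given as a description. Without Fosb, which entered the test only through the day 1 libraries where it was high, 6 of 9 were called lower, 8 of 9 did not overlap and the median was -0.58. The genes that fell were Fos, Fosb, Fosl1, Fosl2, Jun, Jund and Ier2, and those not called were Junb, Egr1 and Atf3. Beside this decrease the summed macrophage and stellate markers were higher and the hepatocyte and dendritic cell markers lower, as given above, and their part in the result was not tested.

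**Figure D1:**
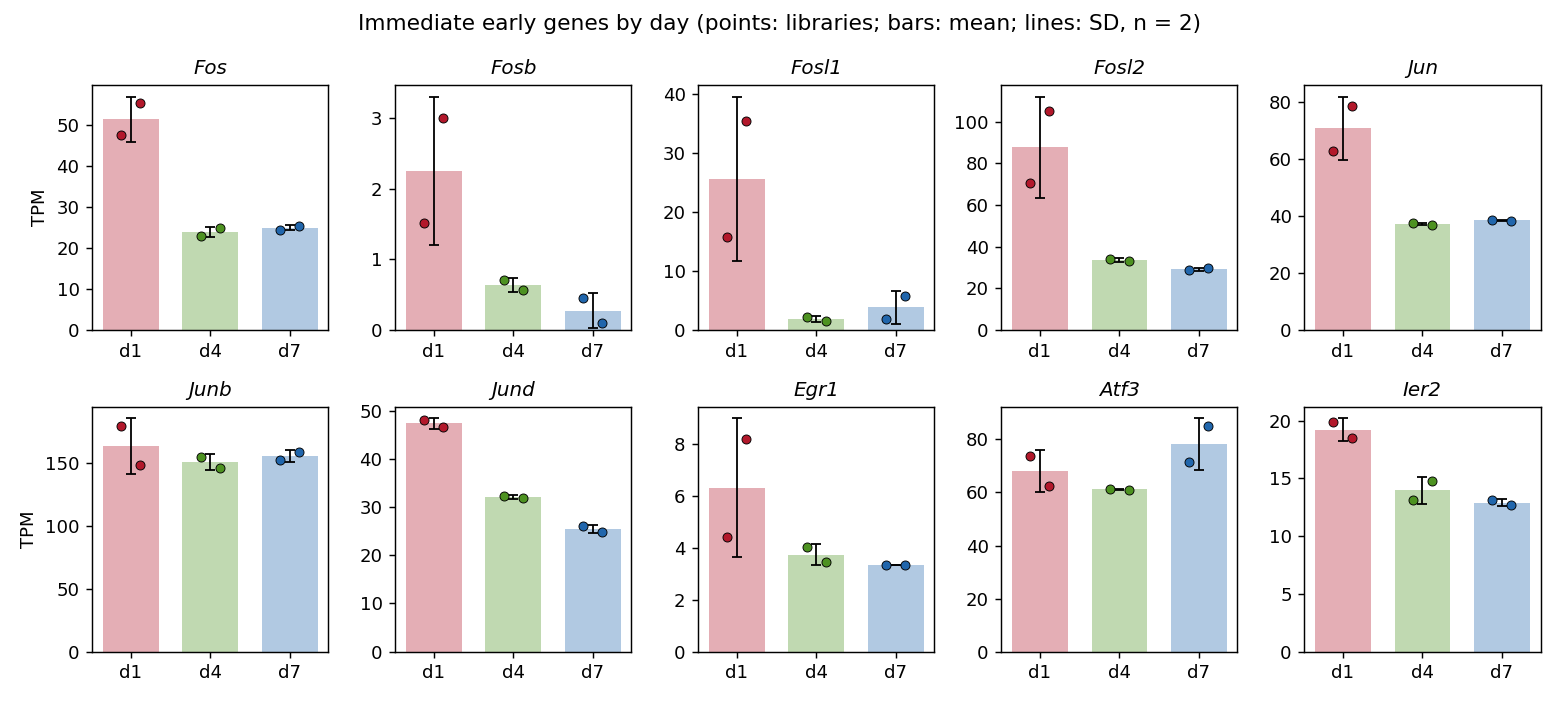
TPM of each of the 10 genes on days 1, 4 and 7 (d1, d4, d7), with each library as a point, the mean as a bar and the SD as a line (n = 2). Fosl1 dropped from 15.7 and 35.4 TPM on day 1 to 2.13 and 1.44 TPM on day 4, whereas Junb stayed between 146 and 179 TPM in the 6 libraries.

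Fosl1 had the largest decrease of the 10. This gene encodes FRA-1, a FOS protein without the transactivation domain of FOS, and lies on chromosome 19 from 5447547 to 5455946. It stood at 15.7 and 35.4 TPM in the 2 day 1 libraries, 2.13 and 1.44 TPM on day 4, and 1.88 and 5.78 TPM on day 7. Every later library was below both day 1 libraries, but the day 1 pair differed 2.25-fold. The log2 change to day 4 was -3.16 (SE 0.50, limma adjusted p = 0.00527), and it ran from -3.72 without day 1 replicate 2 to -2.60 without day 1 replicate 3, called in all 6 fits that left out 1 library. Its place among the tested genes went from the percentiles 52.9 and 72.9 on day 1 to 15.8 and 12.3 on day 4. Its overlapping neighbour Ccdc85b had 3.9 and 3.68 TPM on day 4 and 4.08 and 5.2 TPM on day 7, above Fosl1 in all of these but day 7 replicate 2.

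Fosl2, the gene of FRA-2, which in mice drives fibrosis when overexpressed, was the most abundant FOS gene in every library. It lies on chromosome 5 from 32135801 to 32157842 and measured 70.5 and 105 TPM on day 1, 34.1 and 32.9 TPM on day 4, and 28.7 and 29.6 TPM on day 7. The 3 days did not overlap, but day 7 was not called against day 4 (limma adjusted p = 0.806). Fosl2 fell by 1.33 on the log2 scale to day 4 (SE 0.19, limma adjusted p = 0.00323). Fos, the founding member of the family, is on chromosome 12 from 85473890 to 85477273. It had 47.6 and 55.4 TPM on day 1, 23 and 24.8 TPM on day 4, and 24.5 and 25.4 TPM on day 7. The day 1 libraries stood clear of the later 4, and days 4 and 7 overlapped. Its log2 change to day 4 was -1.07 (SE 0.12, limma adjusted p = 0.00131).

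Fosb was the least abundant of the 10 in every library. It is on chromosome 7 from 19302696 to 19310051 and had 1.51 and 3 TPM on day 1, 0.704 and 0.561 TPM on day 4, and 0.45 and 0.099 TPM on day 7. Only the day 1 libraries exceeded 1 TPM, so the filter favoured a difference in this gene, and the counts are also given without it. The log2 change of -0.96 (SE 0.30) to day 4 was only just under the threshold (limma adjusted p = 0.0497). It was no longer called with a pseudocount of 0.5 (adjusted p = 0.0592) or without day 1 replicate 3 (log2 change -0.62, adjusted p = 0.182). Of the 6 fits that left out 1 library it was called only without day 1 replicate 2 (adjusted p = 0.0181), since it was also lost without day 4 replicate 1 (0.137) or 2 (0.181) and without day 7 replicate 1 (0.0815) or 2 (0.0797).

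The log2 changes of the JUN genes to day 4 ran from -0.90 for Jun to -0.11 for Junb. Jun encodes the main partner of FOS and can also act as a homodimer. It lies on chromosome 4 from 95049034 to 95052222, with 63 and 78.7 TPM on day 1, 37.4 and 37 TPM on day 4, and 38.7 and 38.4 TPM on day 7. The 4 later libraries were nearly level and all below day 1, with a log2 change to day 4 of -0.90 (SE 0.13, limma adjusted p = 0.00349).

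Jund, whose product is the JUN protein most often found in resting cells, is on chromosome 8 from 70698949 to 70700616. It had 48.1 and 46.6 TPM on day 1, 32.4 and 31.8 TPM on day 4, and 26.1 and 24.9 TPM on day 7. The 3 days stood apart in steps downwards, and the replicates were closer than for any FOS gene on day 1. The step from day 4 to day 7 was not called (limma adjusted p = 0.277), and 33.9% of all tested genes were lower there without overlap. The first step was -0.55 on the log2 scale (SE 0.10, limma adjusted p = 0.00795). It missed the threshold when either day 4 library was left out, replicate 1 (adjusted p = 0.0666) or replicate 2 (adjusted p = 0.0781), which left 1 library on that day.

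Junb, an AP-1 subunit that can dampen the activity of JUN, was the most abundant of the 10 genes in every library. It lies on chromosome 8 from 84974484 to 84978718 and had 179 and 148 TPM on day 1, 155 and 146 TPM on day 4, and 152 and 159 TPM on day 7. The 3 days overlapped, and the gene stood between the percentiles 93.4 and 95.1 of the tested genes in all 6 libraries. The log2 change to day 4 was -0.11 (SE 0.13, 95% interval -0.43 to 0.20, limma adjusted p = 0.515), an interval that leaves room for a modest change in either direction. The value was 0.02 without day 1 replicate 2 and -0.25 without day 1 replicate 3 (adjusted p = 0.0417), and it was -0.47 (adjusted p = 0.0124) when TPM were rescaled without the satellite-like models.

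**Figure D2:**
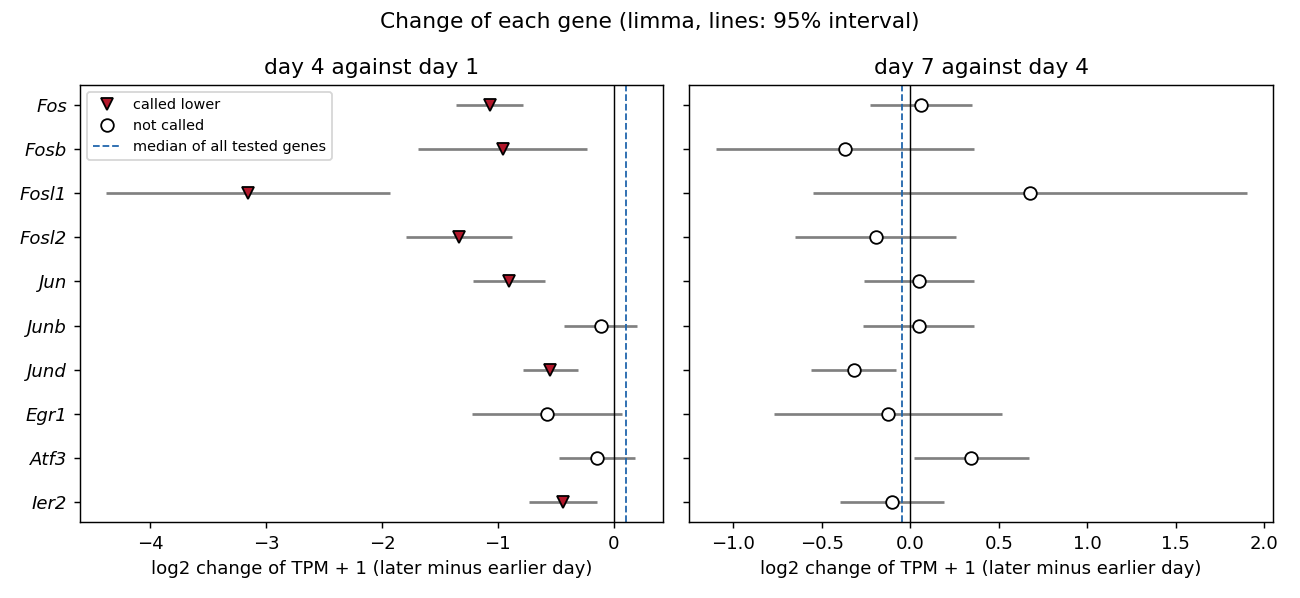
Change of each gene on the log2(TPM + 1) scale for day 4 against day 1 and day 7 against day 4, with the limma 95% interval as a line. Triangles are genes called lower, open circles genes not called, and the dashed line is the median of all tested genes (0.11 and -0.05). Changes to day 4 ran from -3.16 for Fosl1 to -0.11 for Junb, and no gene was called between day 4 and day 7. The scales of the panels differ.

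Egr1 and Atf3 were not called, and Ier2 fell. Egr1 encodes a zinc finger factor that responds to serum and binds GC-rich sites, and lies on chromosome 18 from 34859823 to 34864984. It had 4.41 and 8.19 TPM on day 1, 4.02 and 3.44 TPM on day 4, and 3.32 and 3.33 TPM on day 7. Every later library was below both day 1 libraries, which differed 1.86-fold between themselves. The log2 change to day 4 was -0.58 (SE 0.27, 95% interval -1.22 to 0.07, limma adjusted p = 0.135). It was -0.20 without day 1 replicate 3, and reached the threshold without day 1 replicate 2 (-0.96, adjusted p = 0.00803) and after quantile normalization (-0.77, adjusted p = 0.04).

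Atf3 encodes a stress-induced factor of the ATF family that pairs with JUN proteins, and lies on chromosome 1 from 191170296 to 191218039. It had 73.7 and 62.5 TPM on day 1, 61.4 and 61 TPM on day 4, and 71.4 and 85.1 TPM on day 7. Day 4 was lowest by a small margin and day 7 overlapped day 1. The log2 change to day 4 was -0.15 (SE 0.13, 95% interval -0.47 to 0.18, limma adjusted p = 0.417), or -0.50 (adjusted p = 0.0193) after rescaling without the satellite-like models.

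Ier2, whose product is a nuclear protein induced by growth factors, is on chromosome 8 from 84661331 to 84662852. It had 19.9 and 18.5 TPM on day 1, 13.1 and 14.8 TPM on day 4, and 13.1 and 12.7 TPM on day 7. Day 1 stood above the later days without overlap. The log2 change to day 4 was -0.43 (SE 0.12, limma adjusted p = 0.0357), and the call was lost without day 4 replicate 1 (adjusted p = 0.206), day 4 replicate 2 (adjusted p = 0.108), day 7 replicate 1 (adjusted p = 0.082) or day 7 replicate 2 (adjusted p = 0.0817).

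The size of these decreases shifted with the scaling of the libraries, and the median of all genes shifted with them. That median was 0.11 as deposited, -0.02 with median-ratio factors and -0.21 once the satellite-like models were removed. Both rescalings multiply each library by a constant, so values relative to that median are nearly fixed by construction and are given only as a description. Fosl1 was 3.26, 3.25 and 3.29 below the median on the log2 scale in those 3 scalings, and Fos 1.18, 1.19 and 1.21 below. Junb was 0.22, 0.24 and 0.26 below, and Atf3 0.26, 0.27 and 0.29 below. Without the satellite-like models 9 of the 10 were called lower, all but Egr1, but 23.6% of all tested genes were then called lower as well.

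No gene of the 10 was called between day 4 and day 7 (limma, adjusted p under 0.05), where 0.466% of all tested genes were called, and 2 of the 10 had an unadjusted p under 0.05 against 11.9% of all. Those 2 were Atf3 and Jund, which stood in opposite directions. Atf3 had 61.2 ± 0.292 TPM on day 4 and 78.3 ± 9.68 TPM on day 7 (SD, n = 2), with both day 7 libraries higher and a log2 change of 0.35 (95% interval 0.02 to 0.67, limma adjusted p = 0.391). Jund had 32.1 ± 0.482 and 25.5 ± 0.855 TPM, with both day 7 libraries lower and a log2 change of -0.32 (95% interval -0.56 to -0.08, limma adjusted p = 0.277). The least certain was Fosl1, with an interval from -0.55 to 1.90. Its width rests on the spread pooled over all 3 days. The Fosl1 libraries stood at 15.7 and 35.4 TPM on day 1 and at 1.88 and 5.78 TPM on day 7.

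Over the whole course the same 7 genes were lower on day 7 than on day 1, against 16.8% of all tested genes called lower, or 6 of 9 without Fosb. This comparison shares the day 1 libraries with the one above, so it is given only by its own values. Fosl1 was at -2.48 on the log2 scale (SE 0.50, limma adjusted p = 0.0111), with -3.10 without day 7 replicate 2 and -1.86 without day 7 replicate 1, where it was no longer called (adjusted p = 0.0668). Fosl2 stood at -1.53 (SE 0.19, adjusted p = 0.00161), Fos at -1.01 (SE 0.12, adjusted p = 0.00135) and Jund at -0.87 (SE 0.10, adjusted p = 0.00118). Fosb and Ier2 lost the call without either day 7 library (limma adjusted p = 0.0538 to 0.0999), Fosb also without day 1 replicate 3 (0.0558), and Egr1 gained it without day 1 replicate 2 (-1.09, adjusted p = 0.00497). Atf3 was at 0.20 (95% interval -0.13 to 0.52), which became -0.15 without the satellite-like models.

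The make-up of the AP-1 transcripts differed between day 1 and the later days. The 4 FOS genes summed to 135 and 199 TPM on day 1 and to between 55.5 and 60.9 TPM in the 4 later libraries. The 3 JUN genes summed to 290 and 274 TPM on day 1 and to between 215 and 224 TPM later. FOS genes thus held 31.8% and 42% of the joint FOS and JUN sum on day 1, and 20.4% to 21.7% in every later library. Shares within a library do not depend on the satellite-like models.

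**Figure D3:**
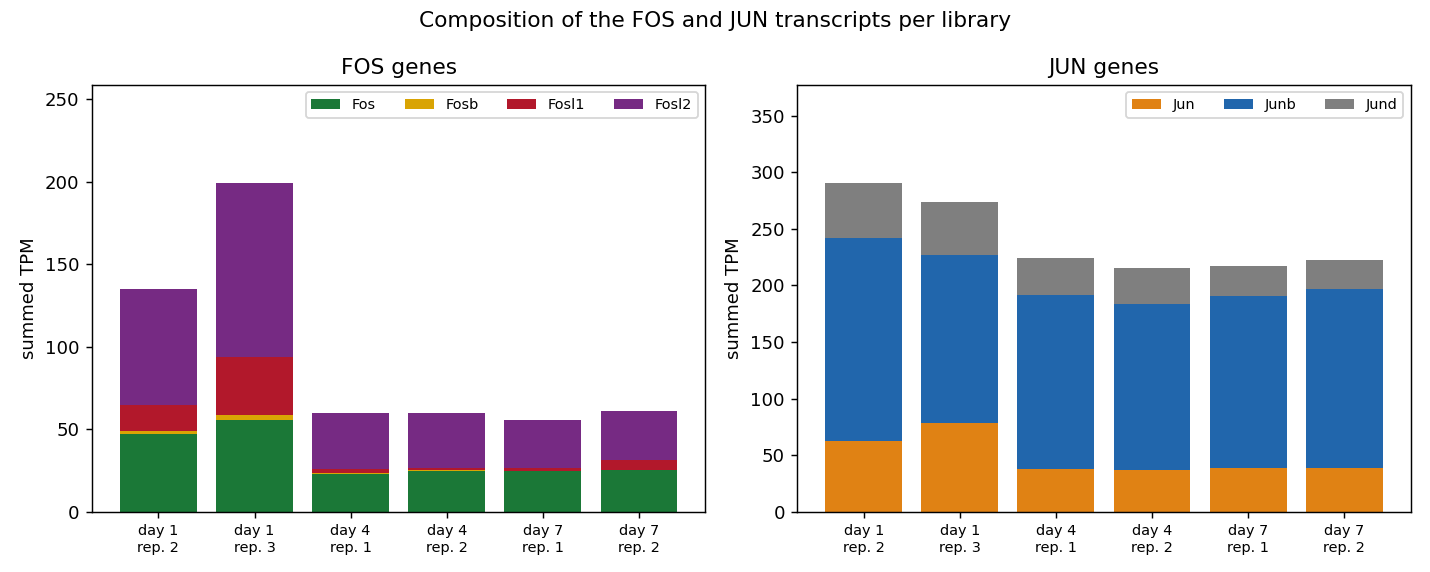
Summed TPM of the FOS genes (left) and JUN genes (right) in each of the 6 libraries, split by gene. The FOS sum was 135 and 199 TPM on day 1 and at most 60.9 TPM later, whereas the JUN sum ran from 215 to 290 TPM, mostly Junb. The scales of the panels differ.

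Within the FOS genes Fosl2 held 48.7% to 56.9% of the sum in all 6 libraries. Fosl1 took 11.6% and 17.8% on day 1, 3.55% and 2.41% on day 4, and 3.39% and 9.48% on day 7, so day 7 replicate 2 came close to the lower day 1 library. The share of Fos was 35.1% and 27.9% on day 1 and 38.4% to 44.1% later. Among the JUN genes Junb held 61.7% and 54.2% on day 1 and 68% to 71.5% later, while Jund went from 16.6% and 17% on day 1 to 14.5% and 14.8% on day 4 and 12% and 11.2% on day 7. The ratio of Junb to Jun was 2.84 and 1.89 on day 1 and 3.93 to 4.14 in the later libraries. These shares are descriptions of 6 libraries and were not tested.

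The pair of day 1 libraries did not differ in 1 direction for all 10 genes. Replicate 3 stood above replicate 2 by a factor of 2.25 for Fosl1, 1.99 for Fosb, 1.86 for Egr1, 1.49 for Fosl2, 1.25 for Jun and 1.17 for Fos. In Junb, Atf3, Ier2 and Jund replicate 2 was the higher one, by factors of 1.20, 1.18, 1.07 and 1.03. Replicate 3 was also the library with the larger share of satellite-like models, and the part of that in these differences was not tested.

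In order of mean level on day 1, Junb came first (164 ± 21.4 TPM), then Fosl2 (87.6 ± 24.2), Jun (70.8 ± 11.1), Atf3 (68.1 ± 7.97), Fos (51.5 ± 5.58), Jund (47.3 ± 1.07), Fosl1 (25.5 ± 13.9), Ier2 (19.2 ± 0.964), Egr1 (6.3 ± 2.68) and Fosb (2.26 ± 1.05). The libraries of Fosl2, Jun and Atf3 overlapped in that order, as did those of Fos and Jund and those of Fosl1 and Ier2. On day 4 the order was Junb, Atf3, Jun, Fosl2, Jund, Fos, Ier2, Egr1, Fosl1 and Fosb, with no overlap between neighbours, and Fosl1 had moved below Egr1. On day 7 it was the same except that Fosl1 stood above Egr1, and both this pair and Jund with Fos overlapped.

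For 3 of the genes, the nearest profiles were sought among 10361 other tested genes, as the root mean square distance between log2(TPM + 1) values centred on their own mean over the 6 libraries. Candidates had a mean of at least 5 TPM on their highest day, and predicted, clone-named and some other symbols were excluded. Nearest to Fos were Naa25, a subunit of an N-terminal acetyltransferase (distance 0.067), the proteasome gene Psmd11 (0.071) and Eif2ak2, the gene of the RNA-activated kinase PKR (0.074). Psmd11, for example, had 138 ± 22.1 TPM on day 1, 65.6 ± 2.84 on day 4 and 70.2 ± 4.23 on day 7. Nearest to Jund were the microtubule-binding protein gene Eml1 (0.044), the methyl-CpG binding protein gene Mbd2 (0.046) and Nfkbiz, a nuclear IkB protein gene (0.051). Fosl1 had no such close match, with Olr1, a scavenger receptor gene, at 0.361, the repressor gene Bcl6b at 0.377 and the chemokine gene Ccl8 at 0.443. The values were not scaled, so this distance grows with the size of a change and the spread of replicates, both larger for Fosl1.

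Of 29 other immediate early genes tested, 13 fell (44.8%, against 11.6% of all tested genes) and 3 rose (10.3%, against 25%) between day 1 and day 4, with a median log2 change of -0.47. This list and those below were also chosen with earlier results of these data known, so their shares are descriptions. Without the satellite-like models 19 were lower and 3 higher, with 23.6% of all tested genes lower. The kinase regulator gene Trib1 fell from 31.5 ± 12.5 to 10.8 ± 0.56 TPM and the growth regulator gene Myc from 40.2 ± 10.3 to 17.8 ± 1.45 TPM, with log2 changes of -1.41 and -1.11. The matricellular gene Ccn2, a target of YAP and of serum response factor, rose from 166 ± 0.331 to 531 ± 24.8 TPM. Egr3, Egr4 and Npas4 did not reach the filter, and their highest values were 0.628, 0.163 and 0.0937 TPM. The 13 calls depended on the libraries, with fewer lower when a day 4 or day 7 library was left out and more without day 1 replicate 2. The share of all tested genes called lower moved the same way in each of these fits.

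Among 26 other bZIP genes, whose products pair with AP-1 proteins or share their dimerization domain, 8 fell (30.8%) and 2 rose (7.69%) to day 4. Of all tested genes 11.6% fell and 25% rose. The median of the bZIP genes was -0.34. Batf2, an interferon-induced member, fell from 29 ± 1.41 to 8.24 ± 0.016 TPM, the cyclic AMP element modulator gene Crem from 69.8 ± 3.75 to 33.8 ± 1.75 TPM, and the small Maf gene Mafg from 63.5 ± 17.4 to 30.4 ± 3.94 TPM. Crem and Fos had log2 changes of -1.02 and -1.07. Fewer bZIP genes were called lower when a day 4 or day 7 library was left out, and more were called in both directions without day 1 replicate 2. The same held over all tested genes.

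Of 27 genes of the MAP kinase cascades, which lie upstream of the immediate early genes, 5 rose (18.5%, against 25% of all tested genes) and 4 fell (14.8%, against 11.6%) to day 4. Their median was 0.07, and without the satellite-like models none rose and 9 fell, with 23.6% of all tested genes lower. Fewer of the 27 rose and fell when a day 4 or day 7 library was left out, and more without day 1 replicate 2, as over all tested genes. The kinase gene Map2k3 fell from 46.6 ± 19.5 to 22 ± 0.515 TPM and Mapk7, the ERK5 gene, from 26 ± 3.82 to 14.9 ± 0.368 TPM. Of 7 genes of serum response factor and its cofactors, 1 rose (14.3%) and none fell. That one was Fhl2, a LIM-domain cofactor gene, which rose from 2.31 ± 0.566 to 30.5 ± 2.78 TPM. The number of the 7 that fell was 2 without the satellite-like models. More of them fell without day 1 replicate 2, as over all tested genes.

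Feedback inhibitors went both ways, with 4 of 23 higher (17.4%) and 7 lower (30.4%) on day 4 and a median of -0.17. Of all tested genes 25% were called higher and 11.6% lower. Fewer of the 23 were called lower when a day 4 library was left out, and more were called in both directions without day 1 replicate 2. The same held over all tested genes. The receptor kinase inhibitor genes Spry1 and Spry2 rose from 1.62 ± 0.32 to 11.4 ± 0.35 TPM and from 8.49 ± 1.44 to 22.4 ± 1.6 TPM. Socs3, which shuts off cytokine receptors, fell from 73.8 ± 1.71 to 25.1 ± 1.3 TPM. Of 16 heat shock genes, 3 rose and 3 fell (18.8% each, against 25% and 11.6% of all tested genes). Their median was 0.06. More of the 16 rose when either day 1 library was left out, and more fell without day 1 replicate 2, as over all tested genes. With the satellite-like models taken out, 3 of the 16 were called higher and 6 lower, while 23.6% of all tested genes were called lower. The co-chaperone gene Dnajb4 and the small heat shock gene Hspb8 rose by log2 changes of 1.74 and 1.65, while Hspa1a, whose near-identical copy Hspa1b makes its value uncertain, fell from 8.09 ± 0.82 to 2.05 ± 0.403 TPM. In the integrated stress response, to which Atf3 belongs as a target, 2 of 10 rose (20%) and 4 fell (40%), with a median of -0.46. Fewer fell when a day 4 or day 7 library was left out, and more rose and fell without day 1 replicate 2, as over all tested genes. The cystine transporter gene Slc7a11 fell by 1.23 and Trib3 by 0.62 on the log2 scale, and the kinase gene Eif2ak3 rose by 0.62.

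**Figure D4:**
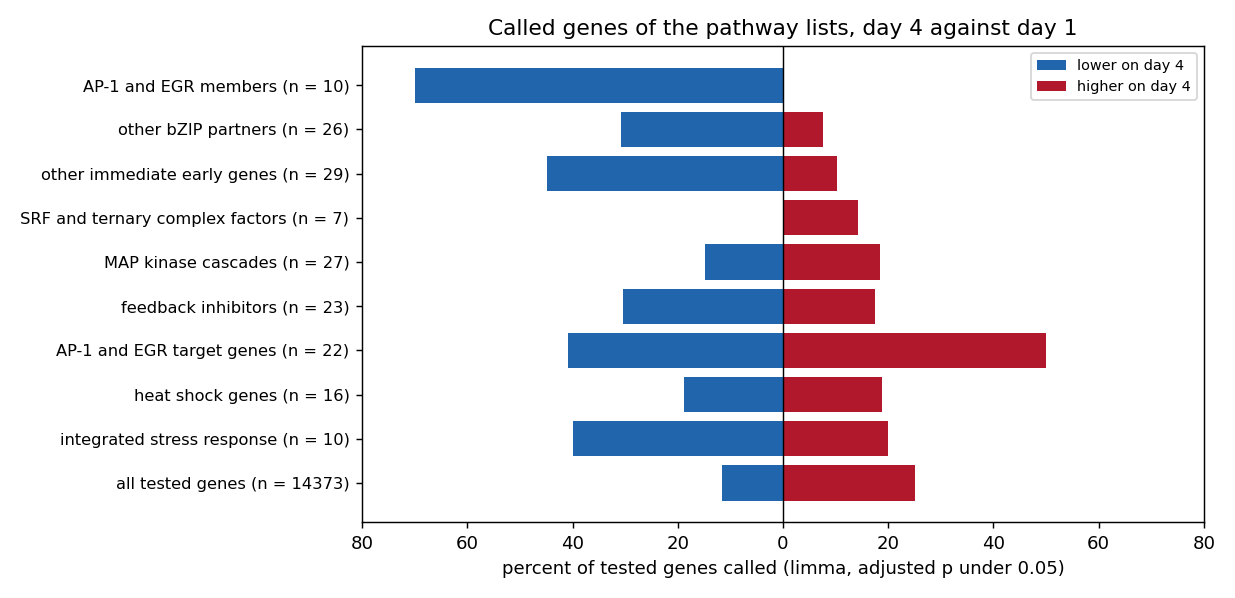
Percent of tested genes called lower (blue, to the left) or higher (red, to the right) on day 4 against day 1 in each gene list and in all 14373 tested genes. The 10 AP-1 and EGR genes had 7 called lower and none higher, and the target genes had 9 lower and 11 higher of 22.

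Of 22 known AP-1 and EGR targets tested, 11 rose (50%, against 25% of all tested genes) and 9 fell (40.9%, against 11.6%) between day 1 and day 4, with a median of 0.47. Once the satellite-like models were removed the counts were 9 and 10, with 23.6% of all tested genes lower. Fewer of the 22 fell when a day 4 or day 7 library or day 1 replicate 3 was left out, as over all tested genes. Timp1, an inhibitor of metalloproteinases, rose from 5.32 ± 0.318 to 68.3 ± 0.263 TPM, the stromelysin gene Mmp10 from 17.3 ± 4.3 to 149 ± 8.15 TPM and the tissue factor gene F3 from 8.36 ± 0.652 to 61.7 ± 0.404 TPM. Between day 4 and day 7, 3 of the 22 rose and none fell, against 0.306% of all tested genes called higher. They were the osteopontin gene Spp1 (121 ± 1.29 to 648 ± 40.3 TPM), the prostaglandin synthase gene Ptgs2 (9.83 ± 0.186 to 27.9 ± 1.85 TPM) and F3, which was named after its value was seen (61.7 ± 0.404 to 162 ± 0.636 TPM). None of the 3 was called when any day 4 or day 7 library was left out, which left 1 library on that day, or without the filter on low values. More targets were called when either day 1 library was left out. Calls over all tested genes moved the same way in each of these fits.

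In the 7 other pathway lists no gene was called between day 4 and day 7, and the most abundant members serve as examples. A fit of those days alone called 1 of 26 bZIP genes and 1 of 27 MAP kinase genes lower. It called 2 of 23 feedback inhibitors and 2 of 10 integrated stress response genes higher. Of all 14373 tested genes that fit called 265 higher and 344 lower (2.39%), against 44 and 23 in the fit of all 3 days. Among bZIP genes Atf4, the main effector of the integrated stress response, had 254 ± 3.94 and 282 ± 7.44 TPM, and the antioxidant regulator gene Nfe2l2 had 162 ± 4.11 and 150 ± 8.65 TPM. Ccn2 had 531 ± 24.8 and 537 ± 19.2 TPM, and the kinase gene Plk2 had 203 ± 3.64 and 196 ± 3.77 TPM. The ternary complex factor genes Elk3 and Elk4 had 31.5 ± 2.74 and 25.4 ± 0.123 TPM on day 4 and 26.3 ± 0.265 and 22.4 ± 0.457 TPM on day 7. None of these 6 genes was called.

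Of the signalling genes, Map2k1, the MEK1 gene, had 135 ± 1.71 and 156 ± 0.9 TPM on days 4 and 7, and Mapkapk2 112 ± 0.651 and 95.9 ± 5.56 TPM. The ERK phosphatase gene Dusp6 had 160 ± 5.04 and 203 ± 4.39 TPM, with a log2 change of 0.34 that was not called (limma adjusted p = 0.44), and Spred1, an inhibitor of the RAS pathway, had 51.7 ± 1.32 and 50.4 ± 1.78 TPM. The chaperone genes Hspa8 and Hsp90ab1 had 2624 ± 33.6 and 524 ± 1.15 TPM on day 4 and 2480 ± 21.2 and 529 ± 45.8 TPM on day 7. Asns, the asparagine synthetase gene and an ATF4 target, had 59.4 ± 1.89 and 82.8 ± 3.79 TPM, a log2 change of 0.47 that was not called (limma adjusted p = 0.252).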

How the data were processed

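The authors deposited 1 TPM value per gene symbol and library. The submitters' processing notes list Trimmomatic, HISAT2 (2.0.5) and StringTie (1.3.3b) and the builds mm10 and GRCm38. Per the labels' protocols, rRNA-depleted stranded libraries were prepared from 1.3 µg of total RNA. Sequencing depth cannot be read from TPM and is unknown, so no counting interval is given. The deposited sheet of gene types lists all 10 genes as protein coding.

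The filter kept genes reaching 1 TPM in 2 or more of the 6 libraries. A limma 3.58.1 model (R 4.3.3) of log2(TPM + 1) with day as a factor used trended, robust variances and had 3 residual degrees of freedom; this scale understates changes of low genes. Benjamini-Hochberg adjustment ran over all 14373 genes, with calls under 0.05. The fit was tested on simulated data. The alternatives were pseudocounts, filters, scalings, variance models, a replicate block, fits of single pairs of days and leaving out each library. Tests for counts did not apply to TPM. The labels name no batch.

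The 10 genes and all lists were chosen with earlier results of these data known. In each list the text names the 3 called genes of at least 5 TPM with the largest change to day 4 and the 2 from day 4 to day 7, or the 2 most abundant where none was called, and for Fos, Fosl1 and Jund the 3 nearest profiles. A result that this rule took is not reported here. Satellite-like models are the 12 predicted genes sharing 10% or more of their 20-base words with Gm10800. Gene positions are from GENCODE M21 and promoters from RefSeq. Figures used matplotlib 3.10.9.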

Additional observations from a re-analysis of the deposited data

How the results depend on the processing

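The direction and call of Fos, Fosl2 and Jun on days 4 and 7 against day 1 held under every alternative tried, and so did the absence of a call for the 10 genes between days 4 and 7. Other pseudocounts, filters, scalings, a plain variance model and fits of only the days compared called 5 to 9 of the genes to day 4. From day 1 to day 7 they called 6 to 9, and all of these calls were lower. Of all tested genes they called 5.53% to 23.6% lower to day 4, and 8.12% to 31.6% from day 1 to day 7. The upper value of each range came without the satellite-like models. Quantile normalization added Egr1 and removing the satellite-like models added Junb, with Atf3 to day 4 and Egr1 to day 7, while the filter at 5 TPM left Fosb and Egr1 untested. Leaving out 1 library gave 4 to 8 genes called to day 4, 0 between days 4 and 7, and 4 to 8 from day 1 to day 7. Both of the lowest counts came from leaving out 1 of the libraries of the later day. For all genes the same fits gave 2196 to 7602, 0 to 546 and 2684 to 7979 calls, against 5257, 67 and 5956. The 67 calls between days 4 and 7 became 4 without a filter, 37 after quantile normalization, 31 with the replicate block and 609 in a fit of those days alone. The cause was not tested.

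No label says that equal replicate numbers mark a shared source, and over 14373 genes the difference of replicates 1 and 2 on day 4 had a correlation of 0.004 with that on day 7. Replicate 3 occurs only on day 1, so the replicate block fits that library exactly and leaves day 1 to replicate 2. With the block the log2 change to day 4 was -2.38 for Fosl1 and -0.25 for Junb, against -3.16 and -0.11 without it. Sign changes touched values near 0 that were not called. Junb ranged from -0.25 to 0.02 to day 4 and from -0.20 to 0.07 to day 7 when 1 library was left out, and Atf3 went to -0.15 from day 1 to day 7 without the satellite-like models. The split of all calls to day 4 was 3590 higher and 1667 lower as deposited, 2779 and 2331 with median-ratio factors, 2839 and 2504 with quantile normalization and 2057 and 3389 without the satellite-like models. With 2 libraries per day no library could be tested as an outlier, and depth is unknown.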
